A study of Mus musculus with 2 samples.

Results

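Cycling keratinocytes of mouse back skin are described here, that is, cells of the epidermis outside the follicle and of the hair follicle that expressed keratins of the basal layer together with genes of cell division. They were chosen from the droplet library of back skin by a rule on measured values. A barcode was kept with at least 500 genes, at least 1000 unique molecular identifiers (UMIs, each a counted RNA molecule) and at most 10% of UMIs from mitochondrial genes. A kept barcode became a member when Krt5 and Krt14 together reached 20 per 10000 UMIs, when at least 3 of the 8 cycle genes Mki67, Top2a, Aurkb, Plk1, Ccnb2, Cenpa, Rrm2 and Pclaf had a UMI, and when at most 1 of the 6 hair matrix genes Lef1, Hoxc13, Msx1, Msx2, Dlx3 and Shh had one. The rule found 270 cells among 8899 kept barcodes of back skin and 13598 of the series. Because these values chose the cells, the levels of the 16 genes of the rule, and every ratio of the members to other cells below, are descriptions and not tests.

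The study compared back skin with the preputial gland, a sebaceous gland of male rodents, in wild type male C57BL/6 mice aged 52 weeks. Biopsies of 3 mice were pooled for each tissue and run as 1 droplet library per tissue (Chromium 3′ kit) after enzymatic dissociation. There was thus 1 library per tissue, the mice within a pool could not be told apart, and tissue and library cannot be told apart. The back skin library held 37675226 UMIs and the preputial gland library 26288071 UMIs, and no kept barcode was shared between them. No p-value is given, and the 95% intervals below are exact and cover counting error only.

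The epidermis is renewed from its basal layer, where keratinocytes that carry Krt5 and Krt14 are anchored to the basement membrane by integrins and hemidesmosomes. A basal cell that divides copies its DNA in S phase with the help of the MCM helicase, the clamp protein Pcna and newly made histones, and then passes through G2 and mitosis under the cyclin-dependent kinase Cdk1 and its cyclins. Cells that leave the basal layer switch to Krt1 and Krt10 and normally stop dividing, while follicle stem cells of the bulge, known by Cd34 and Lhx2, divide rarely outside the growth phase of the hair cycle.

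Genes of S phase and genes of G2 and mitosis are known for different promoter elements. TTTGAA is the core of the cell cycle homology region read by the MuvB complexes, CCAAT is the element of the factor NF-Y, and TTTCGCGC and TTTGGCGC are forms of the E2F element. These letters were searched on both strands in the RefSeq promoter windows of the GRCm38.p6 assembly, each from 250 bases before to 50 bases after the annotated start. Of the 42 genes of the G2/M list 36 matched a promoter, and of the 36 genes of the S phase list 27 did. The shares below are of genes, some of which had more than 1 promoter. TTTGAA was found for 25 of 36 G2/M genes (69.4%), against 20.2% of all 27025 genes with a promoter and 3 of 27 S phase genes (11.1%). CCAAT was found for 80.6% of G2/M genes, 55.6% of S phase genes and 41.1% of all. Both elements were found for 58.3% of G2/M genes and 7.97% of all. TTTCGCGC and TTTGGCGC were found for 22.2% and 18.5% of S phase genes, against 0.374% and 0.585% of all genes with a promoter. Each was found for 1 of the 36 G2/M genes. A match is a run of letters and not a measured binding site.

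The following windows of 120 bases before the start are shown because they carry these elements and because no annotated exon overlaps them. Ect2 (a regulator of cytokinesis), Hmgb2 (a chromatin protein), Kif11 (a motor of the mitotic spindle) and Lbr (a receptor of the nuclear envelope) belong to the G2/M list, and Mcm6 (a subunit of the replicative helicase) belongs to the S phase list. Capitals mark the searched elements on either strand, and each sequence runs 5′ to 3′ on the strand of its gene.
Ect2, chr3:27153879-27153998, minus strand: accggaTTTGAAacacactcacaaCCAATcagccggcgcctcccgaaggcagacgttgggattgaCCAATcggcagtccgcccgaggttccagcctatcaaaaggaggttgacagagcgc
Hmgb2, chr8:57511723-57511842, plus strand: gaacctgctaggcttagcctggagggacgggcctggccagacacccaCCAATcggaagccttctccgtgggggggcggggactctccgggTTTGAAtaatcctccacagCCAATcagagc
Kif11, chr19:37376262-37376381, plus strand: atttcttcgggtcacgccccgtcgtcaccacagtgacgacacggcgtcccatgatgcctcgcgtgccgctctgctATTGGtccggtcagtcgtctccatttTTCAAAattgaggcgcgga
Lbr, chr1:181842402-181842521, minus strand: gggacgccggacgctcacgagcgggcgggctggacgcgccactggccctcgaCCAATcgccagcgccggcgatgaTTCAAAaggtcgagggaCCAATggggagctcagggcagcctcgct
Mcm6, chr1:128359706-128359825, minus strand: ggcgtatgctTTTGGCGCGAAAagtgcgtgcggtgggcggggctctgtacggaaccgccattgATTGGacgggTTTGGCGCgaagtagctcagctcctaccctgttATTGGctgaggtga
The window of Ect2 holds TTTGAA and CCAAT on the forward strand, with CCAAT present at 2 places. The window of Kif11 holds both elements on the reverse strand (as TTCAAA and ATTGG). The window of Mcm6 holds TTTGGCGC at 2 places, the first of which overlaps TTTCGCGC on the reverse strand, and CCAAT on the reverse strand at 2 more.

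Markers of basal keratinocytes that the rule did not use were found in the members. By the ranges described below, 82 of the 270 members lay in the follicle range and 14 in the suprabasal range. Trp63, the master factor of stratified epithelia, was measured at 200 counts per 1000000 UMIs (CPM, summed over all members), Krt15 at 5246 CPM and the hemidesmosome collagen Col17a1 at 1110 CPM. In the fibroblast range (1117 cells with at least 20 per 10000 UMIs of Col1a1, Col1a2, Col3a1 and Dcn and fewer of Krt5 and Krt14), which should lack these genes, 5.91% of cells had a Col17a1 UMI, against 88.1% of members. With every cell thinned to 1000 UMIs these shares were 2.78% and 59.6%. The median depth was 1842 UMIs in the fibroblast range and 4504.5 in the members. The sebocyte markers Cidea, Pparg, Soat1 and Elovl3, the Langerhans cell marker Cd207 and the endothelial marker Cldn5 had no UMI in any member. Other genes of these lists were found, since 127 members had a UMI of the sebocyte list (20 of them at least 5), 59 of the immune list and 5 of the endothelial list. Free RNA, read from barcodes with at most 100 UMIs, held 464, 433 and 48.8 CPM of the 3 lists, and the members 218, 104 and 20.3 CPM.

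The 270 members made up 6.12% (interval 5.43 to 6.87) of the 4412 keratinocytes that met the keratin and matrix limits. Of the others, 3742 had no UMI of the 8 cycle genes and are called resting keratinocytes here, and 400 lay between, 322 with 1 cycle gene and 78 with 2. The members held 1012 to 17418 UMIs per cell. Their median of 4504.5 UMIs was above the 2341.5 of the resting keratinocytes, and their median number of genes was 1748 against 976. With every cell thinned to 1000 UMIs before the rule the share was 2.25% (103 of 4575 cells). The median share of mitochondrial UMIs was 1.87% in members and 2.19% in resting keratinocytes. Ribosomal protein genes took a median of 24.6% of UMIs in members and 29.9% in resting keratinocytes.

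The cycle genes of the rule were found in very different shares of the members. Mki67, a protein that coats mitotic chromosomes, had a UMI in 245 of 270 members (90.7%), with a median of 3 and a highest value of 22 UMIs. Top2a, the topoisomerase that untangles sister DNA, had one in 244 members (90.4%). Pclaf, which binds Pcna, and Cenpa, the histone of the centromere, were found in 65.2% and 61.9%. Cyclin Ccnb2 was found in 45.2%, and the kinases Aurkb and Plk1 and the nucleotide reductase Rrm2 in 30%, 21.9% and 25.2%. After thinning to 1000 UMIs the shares were 53.7% for Mki67 and 5.19% for Plk1, and in the thinned fibroblast range they were 1.43% and 0.537%. Before thinning, 4.21% of the cells of the fibroblast range had an Mki67 UMI and 1.43% a Plk1 UMI. In S phase and G2/M genes, cells just outside the limit of 3 genes were nearer to those just inside than to resting keratinocytes. The 78 cells just outside it, with 2 cycle genes, held a median of 68.2 UMIs per 10000 of the S phase and G2/M lists together, and the 86 cells just inside it held 92.5. The cells with 1 cycle gene held 16.4 and the resting keratinocytes 12.5.

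Against the resting keratinocytes the members held more RNA of the replication and mitosis genes that the rule did not name. Genes were compared when they reached 50 CPM in either group, leaving out the genes of the rule, mitochondrial genes and ribosomal protein genes, and 1.5-fold and 0.6-fold were used as limits. Of 2793 genes compared, 483 were above 1.5-fold (17.3%) and 80 were below 0.6-fold (2.86%), with a median log2 ratio of 0.15 over all of them. With every cell thinned to 1000 UMIs these counts were 1133 and 354 of 3127, and with at least 4 cycle genes 134 were below. All 35 genes of the G2/M list that were compared, of 42 in the list, were above the limit, with a median log2 ratio of 5.43. All 16 of the 36 S phase genes compared were above it too, with a median of 2.24. Genes that reached 50 CPM only in the members could not be below 0.6-fold, and the rule chose cells by genes of these same processes, so nothing is read from the counts. Summed over the list, the G2/M genes took 11196 CPM in members and 984 in resting keratinocytes, a log2 ratio of 3.51 (3.47 to 3.54). The S phase genes took 2357 and 499 CPM, a log2 ratio of 2.24 (2.17 to 2.30).

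Of the 15 genes with the highest ratio, 9 were in the lists of cell division, as were 112 of the 2764 genes ranked (4.05%). The rule chose both groups by cycle genes, so such genes lead by choice and nothing is read from these shares. The other 6 were Aspm, Esco2, Pbk, Iqgap3, Cdkn3 and Depdc1a. Aspm, which focuses the poles of the spindle, was at 164 CPM in members (226 UMIs, at most 7 in a cell) and had 2 UMIs in all resting keratinocytes together, a log2 ratio of 9.71 (7.84 to 12.76). Hmmr, a spindle assembly protein, was at 251 CPM against 0.587, a log2 ratio of 8.74 (7.60 to 10.20). Kif11 was at 169 CPM against 0.489, a log2 ratio of 8.43 (7.19 to 10.07). Nusap1, which bundles spindle microtubules, was at 418 CPM against 1.37. Iqgap3 had 74 UMIs in members and none in resting keratinocytes, and against a floor of 3 UMIs over that group it was at least 183-fold higher. The kinetochore gene Spc25 had 110 UMIs in members and 2 in resting keratinocytes, a log2 ratio of 8.67 (6.78 to 11.74). The others were the kinetochore gene Knl1, the histone gene Hist1h3c, the cohesin acetyltransferase Esco2, Pbk, Cdkn3, Depdc1a, the ubiquitin enzyme Ube2c, cyclin Ccna2 and Birc5 of the passenger complex, with log2 ratios from 7.11 to 8.66. Free RNA held 8.77 CPM of Aspm, above the 0.196 CPM of the resting keratinocytes, which were chosen to have no UMI of the 8 cycle genes. The kinetochore and passenger complex list was at 3200 against 161 CPM, with 16 of 16 compared genes above the limit, against 17.3% of all genes. The condensin and cohesin list was at 2356 against 775 CPM, with 12 of 16 above, and the exceptions were Nipbl, Wapl, Pds5a and Stag2. Genes such as Spc25 and Knl1, which reached 50 CPM only in the members, could not be below 0.6-fold. The rule also chose cells by genes of division, so nothing is read from the counts of these 2 lists.

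Chromatin genes took more UMIs than any other division list. The list of chromatin genes of dividing cells took 19173 CPM in members and 3393 CPM in resting keratinocytes. Of its 27 compared genes 26 were above 1.5-fold, against 17.3% of all genes. Since the rule chose cells by genes of division, nothing is read from this count. The linker histone Hist1h1b was at 1887 CPM (at most 56 UMIs in a member, median 3) against 29.5 CPM, a log2 ratio of 6.00 (5.83 to 6.17). The histone variant H2afz had a UMI in every member (1 to 57, median 16) and was at 3397 CPM against 556 CPM. Hmgb2 was at 2299 CPM against 192 CPM, and Stmn1, which destabilises microtubules, at 1280 CPM against 87.1 CPM. The histone chaperone Set was the exception of the list, at 602 CPM against 439 CPM, a log2 ratio of 0.45 (0.34 to 0.56).

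Of the 9 genes of the cyclin and kinase list compared 5 were above 1.5-fold and none below 0.6-fold, against 17.3% and 2.86% of all genes. Since the rule chose cells by cycle genes, nothing is read from these counts. Cdk1 was at 227 CPM in members and 1.86 CPM in resting keratinocytes, and cyclin Ccnb1, its partner in mitosis, at 109 CPM against 1.37. The E cyclins of entry into S phase, both under 50 CPM, were at 8.70 against 0.684 CPM (Ccne1) and 23.2 against 3.13 CPM (Ccne2). The D cyclins Ccnd1 and Ccnd2, which act earlier in the cycle, were not above the limit. Ccnd1 was at 146 CPM in members and 177 CPM in resting keratinocytes, a log2 ratio of -0.28 (-0.50 to -0.07), and Ccnd2 at 328 against 469 CPM, a log2 ratio of -0.52 (-0.66 to -0.38). Their kinase Cdk4 was at 66.7 against 46.8 CPM, a log2 ratio of 0.51, and Cdk6 at 54.4 against 54.5 CPM. Among inhibitors of the cycle, 4 of 10 compared genes were above 1.5-fold and 1 was below 0.6-fold, against the same 17.3% and 2.86% of all genes. The INK4 inhibitors Cdkn2c and Cdkn2d were at 60.2 and 208 CPM in members, against 9.78 and 24.3 CPM. Both reached 50 CPM only in the members and could not be below 0.6-fold, so nothing is read from the counts of inhibitors. Cdkn1b was at 130 against 101 CPM and Cdkn1a, the p53 target, at 195 against 230 CPM. The antiproliferative genes Btg1 and Btg2 were lower, with log2 ratios of -0.60 (-0.73 to -0.48) and -0.82 (-0.96 to -0.67), and Mxd4, an antagonist of Myc, was at 57.3 against 142 CPM.

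**Figure D1:**
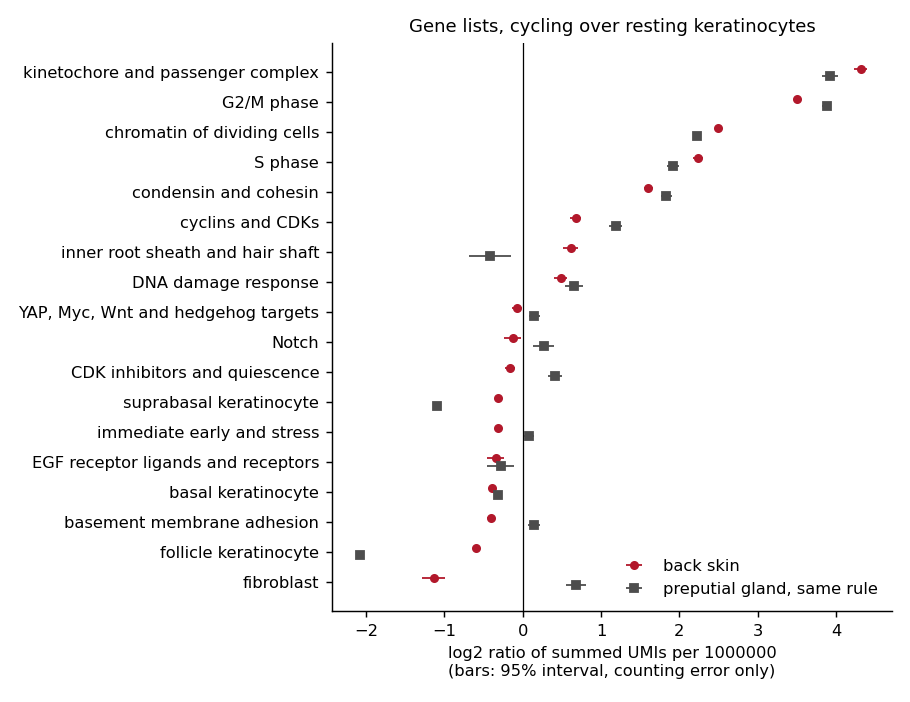
Log2 ratio of summed UMIs per 1000000 of each gene list, cycling over resting keratinocytes, in back skin (circles) and for the same rule in the preputial gland (squares); bars are 95% intervals for counting error only. The division lists lie right of 0 in both libraries, while the fibroblast, adhesion and inhibitor lists lie left of 0 in back skin and right of 0 in the preputial gland.

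Genes of attachment to the basement membrane were measured at somewhat lower levels in members. None of the 11 adhesion genes compared was above 1.5-fold and 3 were below 0.6-fold, against 17.3% and 2.86% of all genes. Their median log2 ratio was -0.37, against 0.15 for all genes. Dst, the plectin relative that ties keratins to hemidesmosomes, was at 452 CPM in members and 779 CPM in resting keratinocytes, a log2 ratio of -0.78 (-0.90 to -0.67). The laminin chain Lama3 was at 30.4 CPM in members and 53.4 CPM in resting keratinocytes. Lama3 reached 50 CPM only in the resting keratinocytes and could not be above 1.5-fold, so nothing is read from the counts of this list. Col17a1 was at 1110 against 1430 CPM and Itga6 at 256 against 330 CPM, with log2 ratios of -0.37 for both. Itgb1 was at 207 against 211 CPM, a log2 ratio of -0.03 (-0.22 to 0.15). The list as a whole took 2816 CPM in members and 3740 CPM in resting keratinocytes, a log2 ratio of -0.41 (-0.46 to -0.36), and the list of basal keratinocyte markers had a log2 ratio of -0.39 (-0.41 to -0.37). The 2 genes that the rule required, Krt5 and Krt14, together went the other way, at 11709 against 10477 CPM.

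Suprabasal keratins took less of the summed RNA of members than of resting keratinocytes, while cornified envelope genes were very high in a few members. Krt1 was at 434 CPM in members and 758 CPM in resting keratinocytes, and Krt10 at 815 against 1296 CPM, log2 ratios of -0.80 (-0.93 to -0.68) and -0.67 (-0.76 to -0.58). Most cells of either group held little of both, with a median Krt1 and Krt10 sum of 1.48 per 10000 UMIs in members and 0 in the shallower resting keratinocytes, and 90th percentiles of 9.78 and 44.9. The suprabasal list took 16353 CPM in members and 20329 CPM in resting keratinocytes, a log2 ratio of -0.31 (-0.33 to -0.29). Of its 16 compared genes 3 were above the limit and 3 below, against 17.3% and 2.86% of all genes. The 3 above were the cornified envelope genes Lor (542 against 47.4 CPM), Flg and Flg2. Of the 748 Lor UMIs in members, 50.9% lay in 1 member and 96.1% in 5, and only 34 members had any. That member, with 13506 UMIs, also held 88.9% of the Flg UMIs, 98.9% of those of Lce1a1 and 73.3% of those of Crct1. Without the 11 members, and the resting cells, that held at least 10 UMIs of cornified envelope genes or of inner root sheath keratins, Lor had a log2 ratio of 0.35 (-0.22 to 0.88), Flg one of -0.014 and Flg2 one of -1.14, while the suprabasal list had one of -0.46 (-0.48 to -0.44). With at least 4 cycle genes Lor and Flg2 turned to -1.05 and -2.75, and after thinning Lor to -0.44. The sheath keratins Krt71, Krt25 and Krt28, of the inner sheath of the growing hair, were above the limit as well, with log2 ratios of 3.08, 2.73 and 2.17. The leading 5 members held 79.3% of the Krt71 UMIs, and without the same cells Krt71 was at 12.5 CPM in members and 13.9 CPM in resting keratinocytes. Of the 9 members with at least 10 UMIs of sheath keratins 4 had high doublet scores (44.4%), against 8.15% of all members that had a high score or lay above the upper UMI limit.

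Some barcodes carried genes of another lineage. A member with 4951 UMIs held 121 of the 413 UMIs of the fibroblast list in all members, and a member with 7500 UMIs held 24 of the 28 endothelial UMIs and 418 of the 525 haemoglobin UMIs (Hbb-bs and Hba-a1). Both were among the 20 members with high doublet scores, and 2 further members lay above the upper limit of 15116 UMIs. The member with most of the Lor UMIs was not among them, and neither was a member with 6466 UMIs that held 172 of the 450 UMIs of muscle genes. For the whole lists, the fibroblast genes took 299 CPM in members and 659 in resting keratinocytes (most abundant Sparc), the immune genes 104 and 121 CPM (Trbc2), the melanocyte genes 42.8 and 107 CPM (Dct), the muscle genes 326 and 339 CPM (Mylpf) and the sebocyte genes 218 and 322 CPM (Mgst1). The endothelial genes went the other way, at 20.3 and 10.4 CPM, a log2 ratio of 0.97 (0.31 to 1.58), with 24 of the 28 UMIs in the member named above. With the members and resting cells of high doublet score or above the upper limit removed, 248 members were left, and the G2/M list stood at a log2 ratio of 3.59, the adhesion list at -0.46 and the suprabasal list at -0.31. Free RNA was not subtracted.

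Markers of the bulge were measured at low levels in members. Among the 15 follicle genes compared the lowest ratios were those of Krt24 at 5.07 CPM in members against 50.6 CPM (log2 ratio -3.32, -4.64 to -2.26), the stem cell antigen Cd34 at 14.5 against 65.9 CPM (-2.18, -2.90 to -1.55), the factor Lhx2 at 15.9 against 59.3 CPM (-1.90, -2.58 to -1.28) and Postn at 56.5 against 199 CPM (-1.82, -2.16 to -1.49). In all, 7 of the 15 were below 0.6-fold, against 2.86% of all genes, and none was above 1.5-fold. Genes such as Krt24, Cd34 and Lhx2, which reached 50 CPM only in the resting keratinocytes, could not be above it, so nothing is read from these counts. Krt79, of the upper follicle, was at 103 against 281 CPM, and Krt17, which most of the follicle expresses, at 1290 against 1899 CPM. Of 585 keratinocytes with Cd34, Lhx2, Postn and Krt24 together at 10 or more per 10000 UMIs, 5 were members, or 0.855% (0.278 to 1.98). The share was 2.87% (1.06 to 6.14) at the same limit of Krt79, 3.24% (1.31 to 6.56) at that of Krt6a and Krt75, and 5.69% (4.43 to 7.18) at that of Krt17. Cells below all these limits and below the suprabasal limit held 7.28% members (6.29 to 8.37). These sub-ranges were chosen after their values were seen, and they are ranges of a sum and not cell types. The genes of the bulge sum were those with the lowest ratios above, so a low share of members among its cells follows from those ratios and is no separate result. The cells with bulge markers were also shallower, with a median of 1693 UMIs against 2581.5. With all cells thinned to 1000 UMIs, 0.342% (0.0414 to 1.23) of them met the rule for cycle genes, against 2.86% (2.24 to 3.59) of the cells below all limits, and at least 1 cycle gene was seen in 5.30% (3.63 to 7.44) against 10.9% (9.74 to 12.2). The suprabasal range, described next, had values in the same range after thinning, with 3 cycle genes in 0.495% (0.0600 to 1.78) and at least 1 in 4.95% (3.05 to 7.54) of its cells.

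By ranges of marker sums set for all keratinocytes, 14 members (5.19%) lay in the suprabasal range (Krt1 and Krt10 at 50 or more per 10000 UMIs), 82 (30.4%) in the follicle range (a sum of 9 follicle genes at 10 or more) and 174 (64.4%) in neither. Of the resting keratinocytes 9.59%, 37.0% and 53.4% did. With every cell thinned to 1000 UMIs the suprabasal share of members was 1.94% (0.236 to 6.84). Members made up 3.47% (1.91 to 5.75) of the cells of the suprabasal range, 5.03% (4.02 to 6.21) of the follicle range and 7.31% (6.30 to 8.43) of the remaining keratinocytes. In thinned cells the shares kept this order, at 0.495%, 1.53% and 2.77%. Cells with Krt5 and Krt14 under the limit of the rule were in none of these counts. The 14 members of the suprabasal range had a median of 8128.5 UMIs, against 4504.5 for all members, 3 of them had high doublet scores, and their G2/M genes reached 5134 CPM against 12879 CPM in the remaining members. Free RNA held 2732 CPM of Krt10, so that a few UMIs of it in a cell cannot be told from background. Only 1 member lay within 20% of the suprabasal limit, and 15 lay within 20% of the follicle limit.

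**Figure D2:**
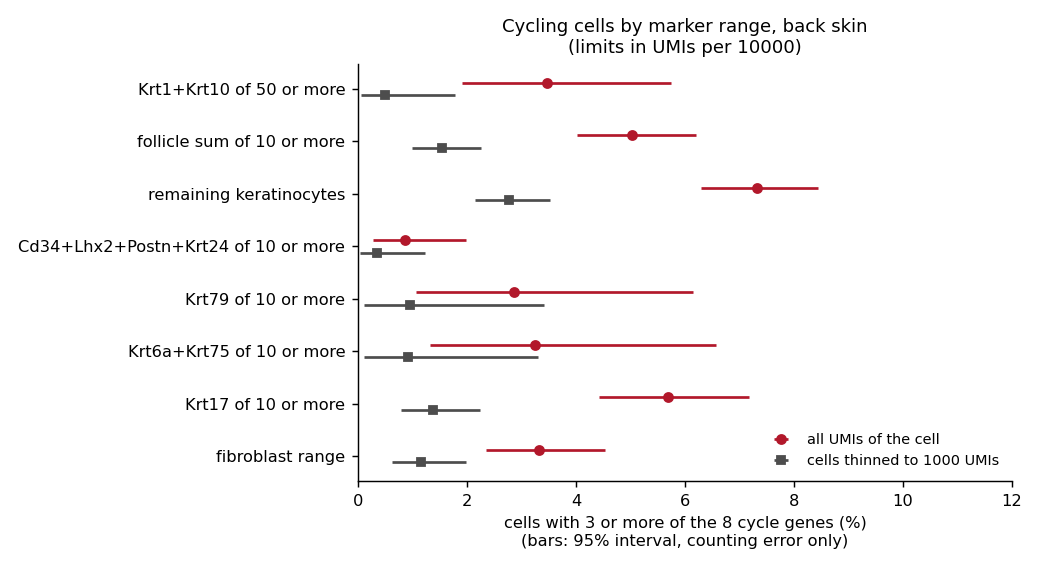
Percent of cells with 3 or more of the 8 cycle genes in ranges of marker sums in back skin, with all UMIs (circles) and after thinning each cell to 1000 UMIs (squares); bars are 95% intervals for counting error only. Among keratinocytes with all UMIs the values run from 0.855% in cells with bulge markers to 7.31% in the remaining keratinocytes. The bulge genes were those with the lowest ratios in members, so that low value follows from their choice. After thinning the cells with bulge markers were at 0.342% (0.0414 to 1.23) and the suprabasal range at 0.495% (0.0600 to 1.78).

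The lower level of adhesion genes was seen within the ranges that held most members. In the follicle range the adhesion list had a log2 ratio of -0.56 (-0.66 to -0.46) over resting cells of the same range, and in the remaining keratinocytes it had one of -0.49 (-0.55 to -0.44). In the suprabasal range, with 14 members, it was 0.24 (0.08 to 0.40). The follicle list itself was lower by a log2 ratio of -0.51 (-0.55 to -0.46) in members of the follicle range.

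Most phase transcripts of the members lay in the G2/M list. Of the UMIs that a member held in the S phase and G2/M lists, a median of 86.2% (quartiles 66.7% and 93.8%) lay in the G2/M list. By this share 225 members (83.3%, 78.3 to 87.6) were at 60% or more, 12 (4.44%) at 40% or less and 33 (12.2%) between, and 77 lay within 10 points of a limit. This is a share of 2 lists of unequal abundance and not a count of cells in each phase. The rule itself favours that end, since most of its cycle genes peak in G2 and mitosis, and the share at 60% or more was 77.6% with at least 2 cycle genes and 89.7% with at least 4. The share at 60% or more was 87.4% (81.5 to 91.9) among the remaining keratinocytes, 75.6% (64.9 to 84.4) in the follicle range and 78.6% (49.2 to 95.3) in the suprabasal range, so that the intervals overlap. In the preputial gland 206 of the 255 cells chosen by the same rule that held at least 5 UMIs of the lists (80.8%, 75.4 to 85.4) were at 60% or more, and all 270 members of back skin held that many.

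**Figure D3:**
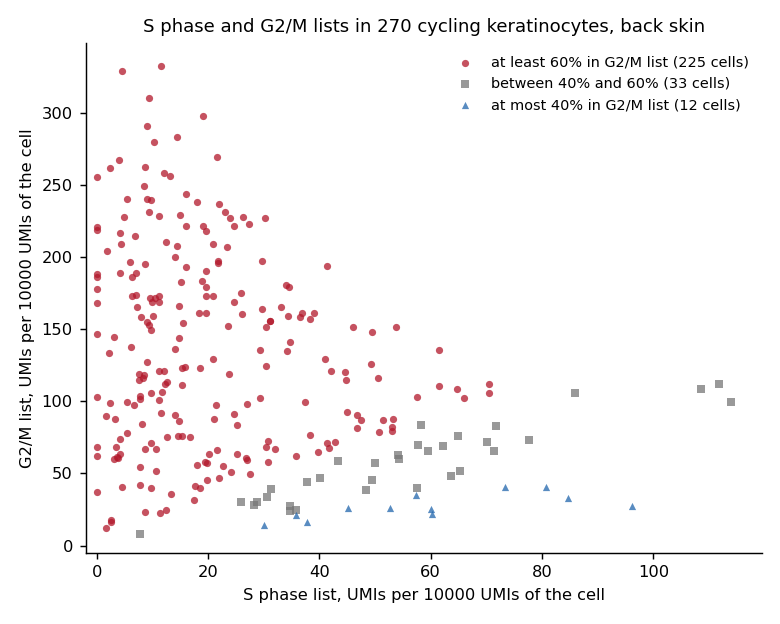
UMIs of the G2/M list against UMIs of the S phase list, both per 10000 UMIs of the cell, for each of the 270 members; colours give the share of phase UMIs in the G2/M list. The 225 cells with 60% or more lie mostly at the left, up to an S phase value of 70.4 per 10000, and the 12 cells with 40% or less lie along the lower edge.

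Between the 225 and the 12 cells, 21.3% of 3578 genes were above 1.5-fold and 28.6% below 0.6-fold. With 12 cells at the S phase end, ratios of single genes between the ends rested on few UMIs. Hist1h1b had 4 UMIs in these 12 cells and 1968 CPM in the 225 cells at the other end, and Serpinb2 had 1 UMI there against 841 CPM. The 270 members were therefore also put in order by the G2/M share and divided into a lower, a middle and an upper group of 90 cells each, a choice made after the values were seen. Their median shares were 59.5%, 86.2% and 95.4%, and their median depths 4283.5, 4954.5 and 4408.5 UMIs. Of 2963 genes outside both phase lists, 501 (16.9%) were above 1.5-fold and 295 (9.96%) below 0.6-fold in the upper over the lower group. Serpinb2 turned in direction, at 877, 645 and 736 CPM in the lower, middle and upper group, a log2 ratio of -0.25 (-0.47 to -0.035).

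Among cyclins and inhibitors outside the phase lists, Ccnd2 and Cdkn1a were lower and Cdkn1b higher in the upper than in the lower group. Of 6 genes of the cyclin list compared 2 were above 1.5-fold and 3 below 0.6-fold in the upper over the lower group. Of 10 inhibitors 5 were above and 2 below, against 16.9% and 9.96% of all 2963 genes. Genes such as Cdkn3, which reached 50 CPM in the upper but not the lower group, could not be below 0.6-fold. Nothing is therefore read from these counts. Genes that helped to set the order or to choose the cells are given as levels only. Cyclin Ccne2, of the S phase list, was at 57.3, 9.99 and 2.35 CPM in the lower, middle and upper group, and the rule genes Rrm2 and Pclaf were at 119, 67.9 and 11.8 CPM and at 522, 264 and 181 CPM. Ccnd2, in neither phase list, went from 423 to 338 and 214 CPM, a log2 ratio of -0.98 (-1.36 to -0.62), and Ccnd1 was at 168, 134 and 136 CPM, a log2 ratio of -0.30 (-0.81 to 0.22). Cdkn1a was at 238, 242 and 94.1 CPM, so that only the upper group was low, with a log2 ratio of -1.34 (-1.90 to -0.80). Cdkn1b was at 92.6, 104 and 200 CPM, a log2 ratio of 1.11 (0.56 to 1.68), and Cdkn3, a phosphatase of Cdk1, at 26.4, 73.9 and 172 CPM. Cdkn2c and Cdkn2d were highest in the middle group, at 24.2, 83.9 and 70.6 CPM and at 97.0, 284 and 238 CPM. Btg1 was at 425, 411 and 414 CPM, and Btg2 and Txnip were nearly level between the lower and upper groups, with log2 ratios of -0.0045 and 0.053. Cenpa, a gene of the rule, was at 72.7, 274 and 501 CPM. Among genes with the highest ratios were the importin Kpna2 and the kinesin Kif14, each with 1 UMI in the lower group, and Aspm with 12, 73 and 141 UMIs. Hbb-bs and Hba-a1 ranked there too, with the member that held most haemoglobin UMIs in the upper group. Among the 10 genes at the other end were Dtl (32, 12 and 4 UMIs) and Parp1 (69, 31 and 8 UMIs), known from replication and repair, the follicle gene Postn (40, 34 and 4 UMIs), Abi3bp (38, 15 and 4 UMIs), Cryab (33, 4 and 4 UMIs), Slfn9, Wdr76, Usp37 and the histone gene Hist1h2an.

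The replication histone genes Hist1h1b, Hist1h1e and Hist1h2ae were lower in the upper group than in the lower and middle groups. Hist1h1b was at 2389 and 2454 CPM in the lower and middle groups and at 682 CPM in the upper, and Hist1h1e at 1009, 1332 and 435 CPM. Hist1h2ae was at 542, 469 and 84.7 CPM. The histone genes H2afz, H2afv and H1f0, which are made outside S phase as well, were lowest in the lower group, with H2afz at 2843, 3687 and 3647 CPM, H2afv at 657, 1172 and 1289 CPM and H1f0 at 123, 190 and 200 CPM, and Hmgb2, itself in the G2/M list, at 1375, 2444 and 3113 CPM. The lower group also held more cells of the follicle range, 36 of 90 against 23 of 90 in each of the others, and its follicle list stood at 5005 CPM against 2355 CPM in the upper group, a log2 ratio of -1.09 (-1.20 to -0.98). Krt5 and Krt14, which the rule used, were lowest in the lower group, at 2962 and 5735 CPM, and highest in the upper, at 4990 and 9679 CPM.

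**Figure D4:**
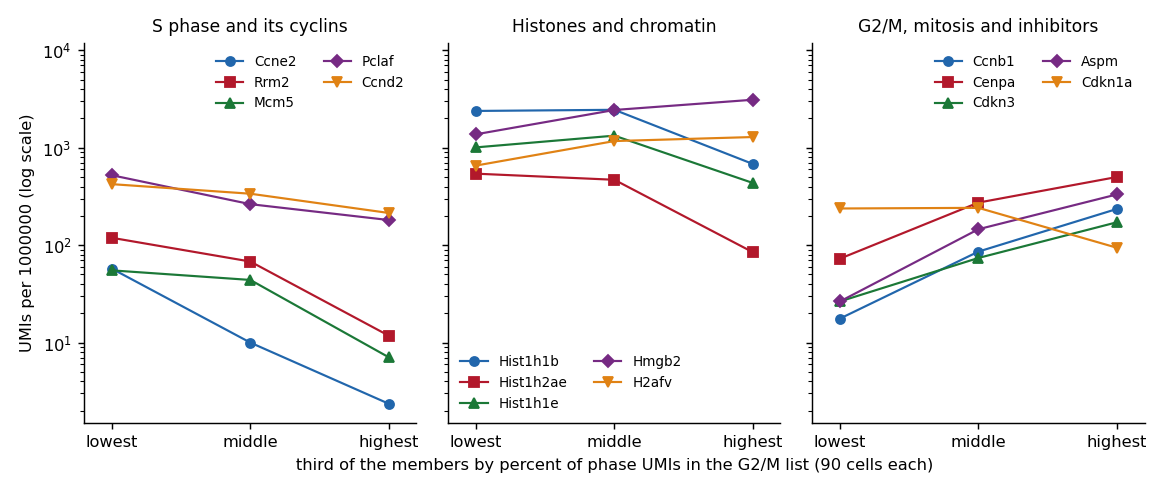
Level of 15 genes in UMIs per 1000000 (log axis) in 3 groups of 90 members ordered by the share of phase UMIs in the G2/M list. Ccne2, Rrm2 and Ccnd2 are highest in the lowest group, Hist1h1b is at 2389 and 2454 CPM in the first and middle groups and 682 CPM in the highest, and Cdkn1a is low in the highest group only. Ccne2, Mcm5, Ccnb1 and Hmgb2 are in the phase lists that set the order, and Rrm2, Pclaf and Cenpa are genes of the rule. Their levels are descriptions only.

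Of the 15 genes that varied most among the members, in a ranking that left out the genes of the rule, 6 were in the suprabasal, follicle or stress lists, as were 50 of all genes ranked (0.674%). Ranked by variance over mean after thinning to 1000 UMIs, among 7420 genes with a median of 0.989, Cst6 (an inhibitor of cathepsins in upper follicle and differentiating cells) led at 45.9. It had 1717 UMIs in 94 members, and 34.1% of them lay in 1 member. Lor (37.7), Krtdap (17.6), Crct1 (17.4) and Sbsn (7.63) are genes of differentiating epidermis, and Krt17 (6.83) marks the follicle. Gm42418 (22.0), a locus within ribosomal RNA repeats, and Malat1 (11.7), a nuclear RNA, were in every member, and Gm42418 took 209145 CPM of free RNA. Hspb1 (8.88) and Atf3 (7.20) belong to the stress response, and Apoe (8.06), in every member with 2 to 815 UMIs, is a lipid carrier. The other ranked genes were Hbb-bs, Hba-a1, H3f3b and Serpinb2. A single member held 73.3% of the Crct1 UMIs, and another 78.5% of the Hbb-bs UMIs. Serpinb2 had 1034 UMIs in 127 members, with at most 123 in a cell.

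The remaining lists are given by their counts, from which nothing is read beside the 17.3% above and 2.86% below over all genes. Of 16 immediate early and stress genes none passed either limit, and the list, which dissociation of tissue can induce, had a log2 ratio of -0.31 (-0.34 to -0.29), with Fos at 868 against 1207 CPM. Of 5 Notch genes compared none passed a limit, with Notch1 at 152 against 115 CPM. Among ligands and receptors of the EGF family, Epgn was above the limit at 112 against 72.8 CPM, but 1 member held 53 of its 154 UMIs and its log2 ratio turned from 0.62 to -0.31 with at least 4 cycle genes, and Hbegf was below it at 97.1 against 185 CPM. Of 5 DNA damage genes compared Topbp1 and Rad51ap1 were above, at 117 against 37.8 CPM and 61.6 against 1.27 CPM, and the whole list had a log2 ratio of 0.48 (0.40 to 0.57). Of 6 targets of YAP, Myc, Wnt and hedgehog compared only the nucleolar gene Nop56 was above, at 74.7 against 45.8 CPM. Beside Cd34, Lhx2, Postn, Krt79 and Mxd4, the 15 lowest ratios included the atrophy gene Fbxo32, Igfbp3, Dapl1, Calml3, S100a4, Il1r2, Vat1, Hotairm1, Clasrp and Gm26532, with log2 ratios from -1.94 to -1.17.

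Hair matrix cells are the other large cycling population of the follicle. At the keratin limit of the rule only 13 cycling cells had 2 or more matrix genes, and their basal markers were lower than in members, by a log2 ratio of 0.49 (0.38 to 0.60) of members over them. At any keratin level, a choice made after that count was seen, there were 212. Of 3310 genes compared, 642 (19.4%) were above 1.5-fold and 778 (23.5%) below 0.6-fold in members over these cells, with a median log2 ratio of -0.29. The G2/M list was nearly level, at 11196 CPM in members and 10536 CPM in matrix cells, and the S phase list was at 2357 against 2946 CPM, log2 ratios of 0.088 (0.054 to 0.12) and -0.32 (-0.39 to -0.25). Against the 13 cells at the keratin limit the S phase list turned to 0.30 (0.05 to 0.56), and the G2/M list was at 0.32 (0.20 to 0.43) with 12 of 38 genes above the limit. Over all 3481 genes of that comparison 17.8% were above and 27.1% below. All 8 adhesion genes compared were above the limit, with Col17a1 at 1110 against 75.3 CPM and a log2 ratio of the list of 2.35 (2.23 to 2.47). Against the 13 matrix cells at the keratin limit 5 of 8 were, and the list stood at 0.92 (0.65 to 1.21). All 16 immediate early genes were above the limit at any keratin level, at 9190 against 1894 CPM in sum, a log2 ratio of 2.28 (2.22 to 2.34). At the keratin limit 1 of the 16 was above and 1 below, and the list stood at -0.11 (-0.22 to 0.0042). These 13 cells passed the keratin limit at a lower level than the members, at 6537 against 11709 CPM of Krt5 and Krt14. Ccnd2 was at 328 CPM in members and 972 CPM in matrix cells, and Odc1, a Myc target and the first enzyme of polyamine synthesis, at 134 against 826 CPM. Trp63 was at 200 against 196 CPM. The fibroblast list took 299 CPM in members and 1024 CPM in matrix cells, and its part in these ratios was not tested. The rule chose these groups by keratins and matrix genes.

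**Figure D5:**
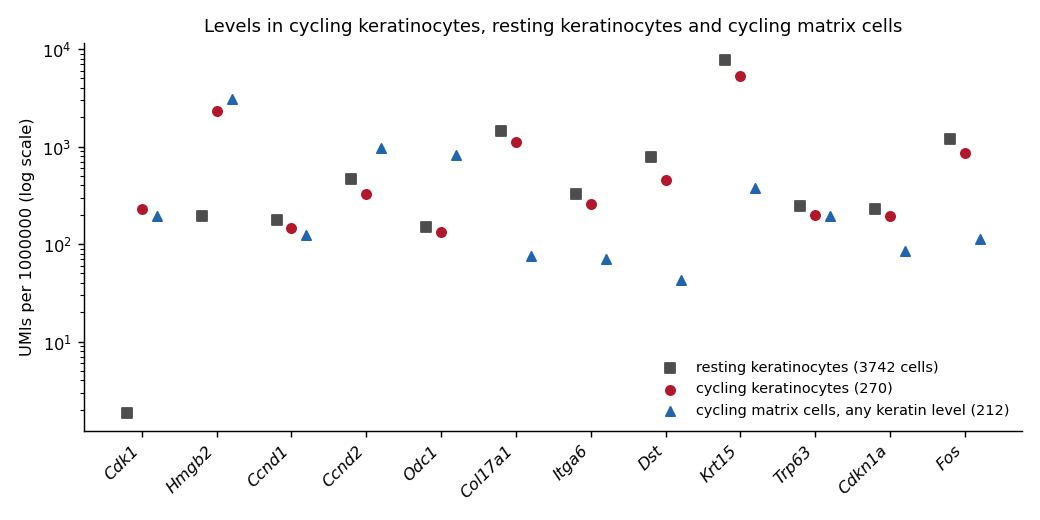
Level of 12 genes in UMIs per 1000000 (log axis), compared within each gene, in resting keratinocytes (squares), cycling keratinocytes (circles) and cycling matrix cells at any keratin level (triangles) of back skin. Cdk1 and Hmgb2 are near in both cycling groups, while Col17a1, Itga6, Dst and Krt15 are lower in the matrix cells.

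The same rule applied to the preputial gland library found 258 of 2371 keratinocytes, 10.9% (9.66 to 12.2), at a median depth of 3954 UMIs, and 3.17% (82 of 2587) after thinning to 1000 UMIs, against 2.25% in back skin. The keratin limit met the 2 libraries differently, since 43 of the 258 gland cells lay within 20% above it and 54 further cycling cells within 20% below, against 7 and 7 in back skin. The groups were also unlike in sebocyte genes. That list took 1883 CPM in the 258 gland cells and 2353 CPM in resting gland cells, against 218 CPM in members of back skin. The division lists stood above resting cells in both libraries, with log2 ratios of 3.88 for G2/M and 1.92 for S phase in the gland, where 575 of 2848 genes compared (20.2%) were above 1.5-fold and 118 (4.14%) below 0.6-fold. No suprabasal range cell was found in the gland, and no Krt24 or Lhx2 UMI among its cycling or resting keratinocytes. The replication histone Hist1h1b was at 284 CPM in the cycling gland cells, against 1887 CPM in back skin, and Hist1h3c at 4.60 against 158 CPM. Rrm2, a gene of the rule, was at 191 CPM in the gland and 67.4 CPM in back skin. The barcode lists of the 2 libraries also differed, and tissue and library cannot be told apart in these levels.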

How the data were processed

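The authors deposited raw UMI counts per gene and barcode, unfiltered, from Cell Ranger (matrix format of version 4) on mm10 per the submitters' processing notes. From these deposited counts, barcodes were kept and grouped by the stated limits. UMIs were summed per group and given per 1000000 (CPM), and ratios carry exact 95% binomial intervals, shares exact Clopper-Pearson intervals. PCR and capture are not covered by either. With 1 library per tissue no test was possible. Genes named by rank were the 15 highest and 15 lowest ratios among genes at 50 CPM with UMIs in 10% of cells of a group, the 15 most variable genes, and genes of the lists. The members and lists were chosen with earlier results of these data known. Doublets were scored (scanpy 1.11.5) and kept in the main values. The barcode lists differed between libraries (6794880 and 737280 entries, 77142 shared), although the labels name 1 kit. Promoters came from RefSeq (GRCm38.p6), without chromosome 18. Python 3.11.15, NumPy 2.4.6, SciPy 1.17.1, pandas 2.3.3 and matplotlib 3.10.9 were used, and the ratio step was tested on simulated data.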

Additional observations from a re-analysis of the deposited data

Results flagged for a closer look

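For 7 of the gene lists with compared genes in both libraries the summed log2 ratio of cycling over resting keratinocytes had opposite signs. The difference was not tested, since each tissue had 1 library. Of the lists without compared genes, the endothelial list was at 0.97 (0.31 to 1.58) in back skin and -1.65 (-4.76 to 0.32) in the gland. Among genes of the rule, Krt5 and Krt14 were at 0.16 and -0.18 and the matrix genes at 0.11 and -1.56. The list of inhibitors and quiescence genes was at -0.16 in back skin and 0.41 in the preputial gland, and that of basement membrane adhesion at -0.41 and 0.14. The inner root sheath and hair shaft list was at 0.61 in back skin, where 9 members held 10 or more UMIs of sheath keratins (-0.09 without the cells that held cornified or sheath genes), and at -0.41 in the gland. The fibroblast list was at -1.14 and 0.68. The Notch list was at -0.13 and 0.27, the list of YAP, Myc, Wnt and hedgehog targets at -0.075 and 0.15, and that of immediate early and stress genes at -0.31 and 0.075.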

How the results depend on the processing

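No paired analysis was possible because each tissue had 1 library. Of 123 values of the main comparisons under other settings 74 stayed within their counting interval (counts of genes within 1.5 times) and 49 moved. No log2 ratio among them changed direction, while shares and counts of genes have no direction to change. The share of keratinocytes that were members was 10.9% from 1000 genes and 2000 UMIs, 7.89% with 2 cycle genes, 4.17% with 4 and 2.25% after thinning, and that of the gland 14.9%, 14.5%, 7.72% and 3.17%, and 7.37% at a keratin limit of 50. Genes above 1.5-fold numbered 1133 after thinning, 1383 from 10 CPM and 270 at 2-fold limits, and genes below 0.6-fold 354, 504 and 30, and 134 with 4 cycle genes. The S phase list was at 2.11 with keratin at 50, 2.17 with 4 genes and 2.35 with equal weight per cell. The G2/M list was at 3.45 from 1000 genes, 3.59 without doublets, 3.34 and 3.71 with 2 and 4 genes, 3.92 thinned, 3.67 with equal weight and 3.56 without cornified and sheath cells. The adhesion list was at -0.46 without doublets, -0.33 with keratin at 50 and with 2 genes, -0.35 at matched depth, -0.47 with equal weight and -0.34 without cornified and sheath cells. The suprabasal list was at -0.36 from 1000 genes, -0.19 with keratin at 50, -0.54 with 4 genes, -0.41 with no matrix gene, -0.81 thinned, -0.26 at matched depth, -0.42 with equal weight and -0.46 without cornified and sheath cells. The share of members at 60% or more in the G2/M list was 77.6% and 89.7% with 2 and 4 genes and 90% above a limit of 50%. The suprabasal share of members was 1.94% thinned and 2.59% at a limit of 100, and the follicle share 21.4% with keratin at 50 and 22.6% at a limit of 20. The basal list over matrix cells was at 2.54 thinned, with 2 matrix cells, and 2.15 at any keratin level. With 4 cycle genes Lor, Flg2 and Epgn turned to -1.05, -2.75 and -0.31, and after thinning Lor and Flg2 to -0.44 and -0.00491, and the cause was not tested. Without cornified and sheath cells, a setting that drops the cells richest in these genes, the inner root sheath list, Krt71, Flg and Flg2 turned to -0.091, -0.15, -0.014 and -1.14. The settings without cornified and sheath cells and with matrix cells at any keratin level were chosen after seeing the data. Of 923 values of single genes and other lists 714 stayed, 200 moved and 9 reversed.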
